A study of Rattus norvegicus with 2 samples.

Results

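The genes described here hold back cyclin-dependent kinases (CDKs), the enzymes that drive the cell cycle, in rat liver that was regrowing after surgery. They are Cdkn1a, Cdkn1b and Cdkn1c of the Cip/Kip family, Cdkn2a, Cdkn2b, Cdkn2c and Cdkn2d of the INK4 family, the phosphatase Cdkn3 and the kinase Wee1. They were chosen by name, and every probe set that the platform's annotation pairs with one of the symbols was kept. All 9 were represented, by 14 of the 31099 probe sets on the array, and the array measured 14217 named genes in all.

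Liver was taken from rats after partial hepatectomy (PH), the removal of part of the liver. The groups, 1/3PH and 2/3PH, are named for the part removed, and the remnant was collected 24 h after surgery in both. In each group the total RNA of 3 rats was pooled and measured on 1 Affymetrix array, so 6 rats gave 2 measurements. The labels give no strain, sex, age or genotype, and the data held no sham-operated or unoperated liver. Per the design text, the larger operation gives robust replication of DNA and the smaller one a minimal response, and the arrays were meant to find the mRNAs that set them apart.

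CDKs are switched on by cyclins and held back in several ways. Cip/Kip proteins bind the assembled cyclin-CDK complex, chiefly those of Cdk2. INK4 proteins bind Cdk4 and Cdk6 and keep them from the D-type cyclins. Wee1 adds an inhibitory phosphate to Cdk1 and Cdk2, and Cdkn3 removes the activating phosphate from a CDK. In mouse liver, p21, the Cdkn1a protein, is known to be induced after partial hepatectomy and to slow hepatocyte DNA synthesis. Inhibitor proteins are also controlled by degradation and modification, which arrays do not measure.

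The values are log2 MAS 5.0 signals, and a log2 ratio is the 2/3PH value minus the 1/3PH value. A gene called "higher" or "lower" was so on the 2/3PH array. The brightest probe set of a gene, by mean log2 signal, stood for it. A gene was counted where that mean reached a floor of 6.48 (a signal of 89.2), the median over probe sets, and was called at a difference of 2-fold or more. There was 1 array per group, so no test was possible, no p-value is given, and no difference below has a replicate check.

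Expression of 5 inhibitor genes was at least 2-fold higher after 2/3PH: Cdkn3, Cdkn1a, Cdkn2c, Cdkn2d and Wee1. Cdkn1b differed by less than 2-fold, Cdkn1c, with a 2/3PH signal under the floor, was not called, and Cdkn2a and Cdkn2b lay under the floor on both arrays. Thus 5 of the 7 members at or above the floor were higher and 0 were lower, where 6.12% of 9514 genes were higher and 3.68% lower by the same limit. The members' median log2 ratio was 1.11, beside 0.03 over all 9514 genes. The count was 3 with 64 units added before the log, where 4.47% of all genes were higher, and left out Cdkn2d and Wee1. By the mean over probe sets it was also 3, where 6.48% of all genes were higher, and left out Cdkn2c and Cdkn2d. It stayed at 5 under poly-A control scaling, where 16.8% of all genes were higher. In whole liver RNA, fewer cells of a type and less RNA per cell cannot be told apart.

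Upstream sequence is shown for 3 of the higher members, since motifs linked to cell cycle, p53 and GC-box control can be read in it. The sequences are from RefSeq, build GRCr8, 5′ to 3′ on the gene's strand, and each ends where the first annotated transcript of the gene begins. For Cdkn3 and Cdkn1a this is short of the later transcript start from which motif positions are counted below. In Cdkn3 the capitals mark the cell cycle homology region (CHR, TTTGAA on either strand, here read as TTCAAA) and a CCAAT box. In Cdkn1a they mark a match to the p53 half-site consensus, and in Cdkn2d they mark GC boxes (GGGCGG on either strand).
Cdkn3, chr15:22502136-22502298, + strand: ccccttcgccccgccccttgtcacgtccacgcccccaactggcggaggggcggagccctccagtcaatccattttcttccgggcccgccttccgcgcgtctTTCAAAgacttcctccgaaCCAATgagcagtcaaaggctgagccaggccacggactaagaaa
Cdkn1a, chr20:7150682-7150819, + strand: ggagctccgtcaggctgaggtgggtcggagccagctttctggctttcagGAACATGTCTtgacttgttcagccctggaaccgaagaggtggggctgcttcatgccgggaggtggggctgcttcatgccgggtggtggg
Cdkn2d, chr8:28110810-28111059, − strand: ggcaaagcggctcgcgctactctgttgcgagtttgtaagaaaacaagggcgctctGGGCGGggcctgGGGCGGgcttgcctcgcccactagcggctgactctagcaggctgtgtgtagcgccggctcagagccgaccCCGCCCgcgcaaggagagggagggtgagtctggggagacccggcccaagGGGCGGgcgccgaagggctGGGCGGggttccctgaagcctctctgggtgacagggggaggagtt

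Motifs were searched on both strands in the 250 bases before the transcript start that the RefSeq table uses, which 7 members had. Cdkn3 had 2 promoter windows there, and only the first listed was searched, as for every gene in the shares below. Of the 250 bases, 199 lay before the first annotated transcript for Cdkn2b, 163 for Cdkn3, 138 for Cdkn1a and 19 for Cdkn1b. All 250 did for Cdkn2d, and 0 for Cdkn2a and Cdkn2c. Every match in Cdkn1b, Cdkn2a and Cdkn2c lay past that point, within the gene's annotated span. The CHR of Cdkn3 lay 149 to 144 bases before that start, and its nearest CCAAT box 130 to 126 bases before it. The same window held 2 further CCAAT boxes nearer the start, past the point where the first annotated transcript begins. A CHR was present in 16.0% of the windows of 27457 genes, a CCAAT box in 34.3%, and both in 5.76%. Cdkn3 was the only member with both. Cdkn2b, under the floor, held a CHR, and Cdkn1b, called in neither direction, held CCAAT boxes.

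The p53 half-site was searched for only after the members' values were known, so its matches were not a planned result. That of Cdkn1a lay 201 to 192 bases before the start. Such matches were present in 6.56% of windows, and Cdkn2c and Cdkn2d held one too; that of Cdkn2d overlapped a GC box. GC boxes were present in 32.4% of windows and in each member's except that of Cdkn1a, with 5 in Cdkn2d. The E2F core (TTNNCGC with C or G at each N), in 7.97% of windows, and the TATA box (TATAAA), in 13.1%, had no match in a member's window. These matches describe letters in a short window and show no binding.

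**Figure D1:**
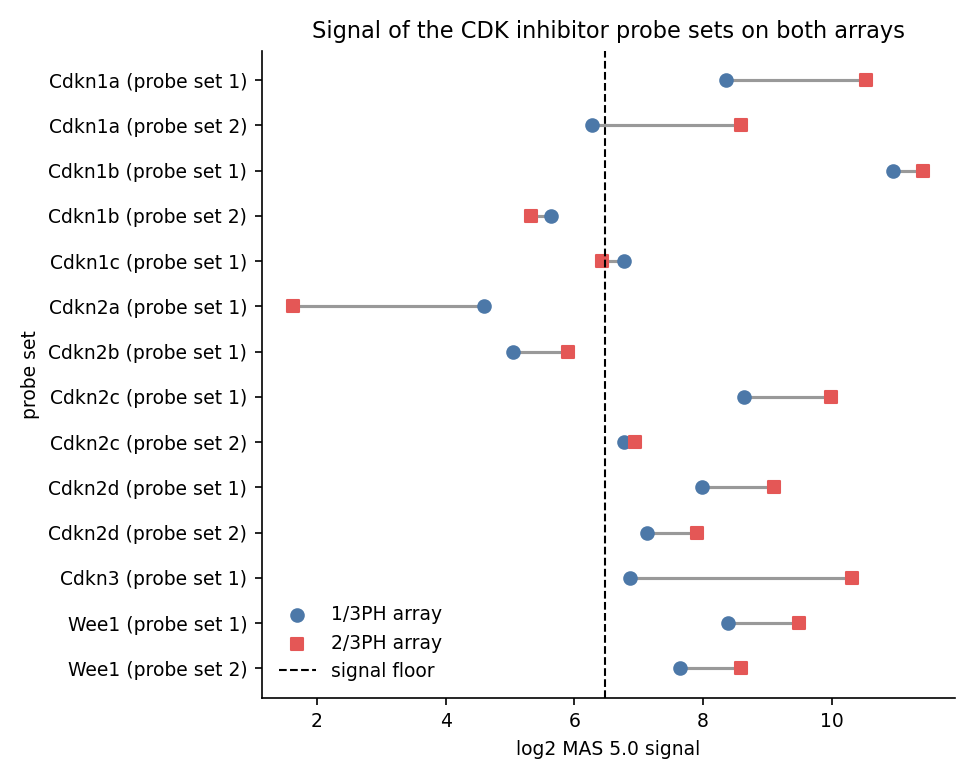
Log2 MAS 5.0 signal (horizontal axis) of the 14 probe sets of the 9 genes, with circles for the 1/3PH array, squares for the 2/3PH array and a dashed line at the floor of 6.48. Probe set 1 is the brighter where a gene has 2. Among probe sets with a mean at or above the floor, Cdkn3 and both Cdkn1a probe sets have the widest gaps. That of the dimmer Cdkn1a probe set crosses the floor, with its 1/3PH value under it.

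Among the Cip/Kip genes, Cdkn1a differed most. Cdkn1a encodes p21, a broad CDK inhibitor and a classic p53 target. Its brighter probe set read 329.6 units in the 1/3PH pool and 1479 in the 2/3PH pool, which is 4.49-fold or 2.17 as a log2 ratio. The dimmer one had signals of 77.6, under the floor, and 383.9, at least 4.30-fold higher. Both probe sets were past the limit in the same direction, and for the dimmer one only this lower bound is available.

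Cdkn1b encodes p27, which restrains Cdk2 in resting cells. Its brighter probe set had signals of 1975 and 2747, a log2 ratio of 0.48 or 1.39-fold. The dimmer one had signals of 49.9 and 40.1, both under the floor. Cdkn1b was therefore well above the floor on both arrays, with a difference short of the limit. The mean of both probe sets gave 0.08.

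Cdkn1c encodes p57, an imprinted inhibitor. It lay near the floor, with signals of 109.6 after 1/3PH and 86.3, just under the floor, after 2/3PH. Set against the floor signal, it was at least 1.23-fold lower. Its log2 ratio of -0.35 rests on a 2/3PH signal under the floor, and it was 0.10 under scaling to the poly-A controls. Of the 3 Cip/Kip genes, 1 was called higher and 0 lower, where 6.12% of all 9514 genes were higher and 3.68% lower.

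The INK4 genes were split by signal. Cdkn2c encodes p18, an inhibitor of Cdk4 and Cdk6, and had signals of 397.3 and 1018 by its brighter probe set, a log2 ratio of 1.36 or 2.56-fold. Its other probe set, with the suffix _x_at, had signals of 109.6 and 122.7, a log2 ratio of 0.16. This suffix marks probes that can also bind other transcripts. The probe sets were 1.19 apart, and their mean of 0.76 was short of the limit.

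Cdkn2d encodes the INK4 protein p19, whose mRNA is known in mouse cells to vary through the cell cycle. Its brighter probe set had signals of 254.8 and 550.5, a log2 ratio of 1.11 or 2.16-fold. The dimmer one had signals of 139.6 and 239.7, a log2 ratio of 0.78 or 1.72-fold. Both were higher after 2/3PH, and 1 of them passed the limit.

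Cdkn2a and Cdkn2b are neighbours in the genome and are known for their part in senescence. Cdkn2a, whose locus encodes p16 and the p53 activator Arf, had signals of 24.3 after 1/3PH and 3.11 after 2/3PH. Cdkn2b, which encodes the TGF-beta-responsive inhibitor p15, had signals of 33.2 and 60.0. Each was below the floor on both arrays, so no fold is given. Of the 4703 genes under the floor, 23.0% differed upward and 18.3% downward by 2-fold or more, against 6.12% and 3.68% above it.

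Cdkn3 had the largest ratio of the members. This dual-specificity phosphatase binds Cdk1 and Cdk2 and removes their activating phosphate, and its mRNA is known to peak late in the cell cycle. Its single probe set had a signal of 116.2 after 1/3PH, a little above the floor, and 1269 after 2/3PH. The log2 ratio of 3.45, or 10.9-fold, was rank 3 from the highest among 9514 genes. With 64 signal units added to both arrays it was 2.89. No second probe set was paired with Cdkn3.

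Wee1, the kinase that delays entry into mitosis, was higher by both of its probe sets. The brighter, with the suffix _s_at, which marks probes shared by several transcripts, had signals of 335.5 and 720.9, a log2 ratio of 1.10 or 2.15-fold. The other had signals of 201.1 and 384.2, a log2 ratio of 0.93 or 1.91-fold. Wee1 and Cdkn2d lay just inside the 2-fold limit by their brighter probe sets and just outside it by the other.

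**Figure D2:**
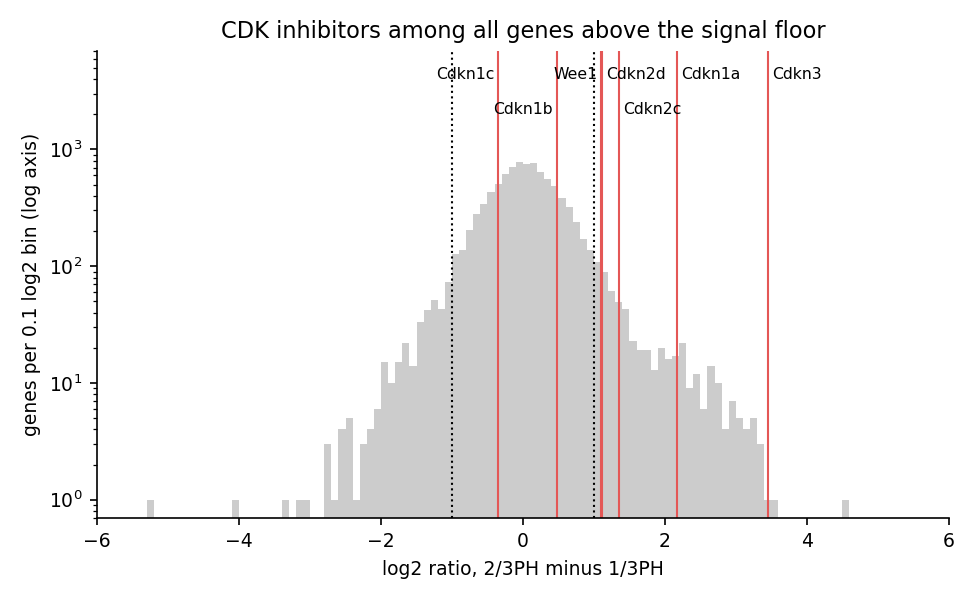
Number of genes (vertical log axis) by log2 ratio, 2/3PH minus 1/3PH, for the 9514 genes at or above the floor, in bins of 0.1. Red lines mark the 7 members above the floor, and dotted lines mark 2-fold. Cdkn3 at 3.45 and Cdkn1a at 2.17 lie in the upper tail, and Cdkn1b at 0.48 and Cdkn1c, whose 2/3PH signal was under the floor, at -0.35 lie in the bulk.

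Ranked among all 9514 genes from the highest ratio, Cdkn1a was at position 109, Cdkn2c at 297, Cdkn2d at 464 and Wee1 at 474. Cdkn1b was at 1951. At a limit of 3-fold, 2 of 7 members were higher, Cdkn3 and Cdkn1a, and 0 lower, where 2.24% of all genes were higher and 0.999% lower. At 1.5-fold, 5 were higher and 0 lower, where 15.8% of all genes were higher and 12.0% lower.

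Agreement between probe sets of a gene was the internal measure of error used here for a gene's ratio. Over 1609 genes with 2 probe sets above the floor, the log2 ratios of a pair were a median of 0.25 apart, and 95% of pairs were within 0.94. Wee1 (0.17) and Cdkn2d (0.33) lay within that range, and Cdkn2c (1.19) lay outside it. No gap is given for Cdkn1a, since its dimmer probe set was under the floor on the 1/3PH array. Pairs of that kind were kept among the 1609, which were chosen by mean signal alone. By probe set, 6 of the 11 member probe sets over the floor passed 2-fold upward and 0 downward, where 5.7% and 3.76% of 15521 probe sets were. The 6 include the dimmer Cdkn1a probe set, whose mean reached the floor only through its 2/3PH signal. The spread between probe sets leaves out variation between animals and between arrays.

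The genes whose ratio was nearest to each called member were listed, as a likeness over 2 arrays. Nearest to Cdkn3 were cyclin D1 (Ccnd1, 3.39), the mitotic kinase Pbk (3.37) and cyclin A2 (Ccna2, 3.55). Nearest to Cdkn1a were Cenpp (2.17), a centromere protein, Mms22l (2.16), which acts in repair of stalled replication forks, and Orc1 (2.16), of the origin recognition complex. Nearest to Cdkn2c were the lipid droplet protein Plin2 (1.35) and the RNA-processing genes Snrpf and Sfpq (both 1.36). Nearest to Cdkn2d were Slc29a2, E2f5 and Hpf1 (each 1.11), and nearest to Wee1 were Spata33, Mrpl12 and Pcsk7 (each 1.10).

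**Figure D3:**
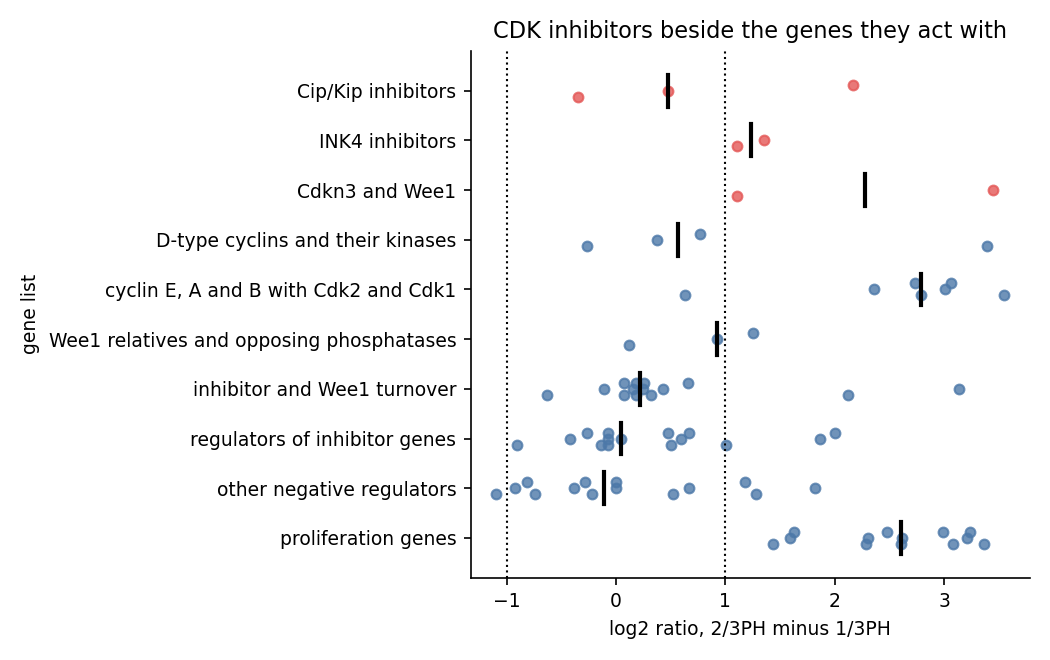
Log2 ratio (horizontal axis) of each gene at or above the floor, by list, with members in red, other genes in blue, list medians as black bars and dotted lines at 2-fold. The cyclin E, A and B list and the proliferation list lie mostly above 2, and the lists of turnover factors, regulators and other negative regulators centre near 0.

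The cyclins and kinases that these inhibitors act on are given beside them. Each list count below on the deposited scale stands beside 6.12% of all 9514 genes higher and 3.68% lower. The first list held the kinases that INK4 proteins bind, Cdk4 and Cdk6, together with the D-type cyclins. Of its 4 genes above the floor, 1, the cyclin gene Ccnd1, was called higher and 0 lower, with a median of 0.57. Under either spiked-in control scaling 2 were higher, where Cdk4 passed the limit. Ccnd1 had signals of 690.4 and 7236, a log2 ratio of 3.39. Cdk4 stood at 0.77, Ccnd3 at 0.37 and Ccnd2 at -0.26 (above 0 under poly-A control scaling), and Cdk6 lay under the floor. By the brightest probe sets, the 2 INK4 genes above the floor had ratios above those of Cdk4, Ccnd2 and Ccnd3 and below that of Ccnd1, but the other probe set of Cdkn2c, at 0.16, was below Cdk4 and Ccnd3.

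For the kinases and cyclins that Cip/Kip proteins, Cdkn3 and Wee1 act on, 6 of 7 genes were called higher and 0 lower, with a median of 2.79. Ccna2 stood at 3.55, Cdk1 at 3.07, Ccnb1 at 3.01, Ccne1 at 2.79, Ccnb2 at 2.74 and Ccne2 at 2.36. Cdk2 stood at 0.63, short of the limit, which it passed under poly-A control scaling (7 of 7 higher), and Ccna1 lay under the floor. The ratio of Cdkn1a was below each of these called ratios, and that of Cdkn3 was between those of Cdk1 and Ccna2.

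A short list held genes that work beside or against Wee1. Pkmyt1, the membrane-bound relative of Wee1, had signals of 109.7 and 262.3, a log2 ratio of 1.26. Cdc25a, a phosphatase that removes the phosphate Wee1 adds, stood at 0.93, and its relative Cdc25b at 0.12. In this list 1 of 3 was called higher and 0 lower, and 2 further listed genes had no probe set under their symbols here. Cdc25a passed the limit under scaling to either set of spiked-in controls.

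Factors that mark inhibitors or Wee1 for degradation, or act with them, had a median of 0.22, with 2 of 14 called higher and 0 lower. The 2 were Cdc20 (3.14), an activator of the anaphase-promoting complex, and Dtl (2.12), which directs p21 to the Cul4 ligase. Cks1b, which helps the ligase recognise p27, stood at 0.66, and the ligase scaffold Cul4a at -0.63. Plk1, a mitotic kinase that marks Wee1 for degradation, was not among the 14, since its mean lay under the floor, but with signals of 9.81 and 511.3 it was at least 5.73-fold higher. The called count was 2 under quantile normalization and loess, and 3 under poly-A control scaling, where 16.8% of all genes were higher. The list's median was 0.45 under hybridisation control scaling and 0.66 under poly-A control scaling, beside 0.27 and 0.48 over all genes.

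Regulators of inhibitor genes had a median of 0.04, with 3 of 15 called higher and 0 lower. Under poly-A control scaling the median was 0.48 and 5 were higher, where the median over all genes was also 0.48 and 16.8% of them were higher. Under quantile normalization and loess 2 of the list were higher. Foxm1, a mitotic transcription factor, was at least 3.60-fold higher, since its 1/3PH signal of 80.1 was under the floor. Ezh2, a Polycomb methyltransferase that represses the Cdkn2a locus, stood at 1.86, and Mdm2, a p53 target and inhibitor, at 1.00, which fell short of the limit under the last pair of settings. Cebpa, a liver transcription factor known to stabilise p21 protein, had signals of 2511 and 1341, a log2 ratio of -0.91, short of the limit.

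Other negative regulators of the cell cycle had a median of -0.11, with 3 of 14 called higher and 1 lower. The higher ones were Rbl1 (1.82), the p107 relative of the retinoblastoma protein, Ccng1 (1.28), a p53 target, and Tp53inp1, at least 2.03-fold higher. For Tp53inp1 the 1/3PH signal of 80.0 was under the floor, and its mean reached the floor only through its 2/3PH signal. The lower one was the stress gene Gadd45g, at -1.09 or 2.13-fold, short of the limit under both spiked-in control scalings. Under quantile normalization 2 genes of the list were lower. The list's median was 0.13 under hybridisation control scaling and 0.33 under poly-A control scaling, beside 0.27 and 0.48 over all genes. The proliferation list had all 13 genes above the floor called higher, with a median of 2.61. Of the 7 members, Cdkn3 alone had a ratio above that median.

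Liver was checked against its markers. All 7 hepatocyte markers measured were above the floor, and their summed signal was 253254 after 1/3PH and 227985 after 2/3PH. Each was lower by a small amount on the deposited scale, and that direction turned with the scaling: all 7 were higher under both spiked-in control scalings, 6 under loess and 5 under quantile normalization. Lists of other cell types moved with the comparison. All 9 macrophage markers were lower, 2 of them by 2-fold, and their summed signal was 28534 after 1/3PH and 15788 after 2/3PH. All 7 endothelial markers were also lower, 1 of them by 2-fold, with sums of 11915 and 7598. So were all 4 neutrophil and erythroid markers, 1 of them by 2-fold, with sums of 27124 and 13511. The erythroid gene Hbb alone gave 24196 and 12168 of these last sums. Of 8 stellate cell and matrix markers, 5 were lower, 3 by 2-fold, and over all 9 measured the sums were 11348 and 6504. Cholangiocyte markers had sums of 1240 and 1292. Of the 6 lymphocyte markers measured, 1, Cd74, was above the floor. The sums over the 6 were 1339 and 937.4, of which Cd74 gave 1172 and 811.4. Under poly-A control scaling, 6 of the 9 macrophage and 4 of the 7 endothelial markers were lower, as were all 4 neutrophil and erythroid markers, and none of these by 2-fold; 1 stellate and matrix marker was still 2-fold lower. No marker was at 0 on either array. The part of these cell types in the members' differences was not tested.

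**Figure D4:**
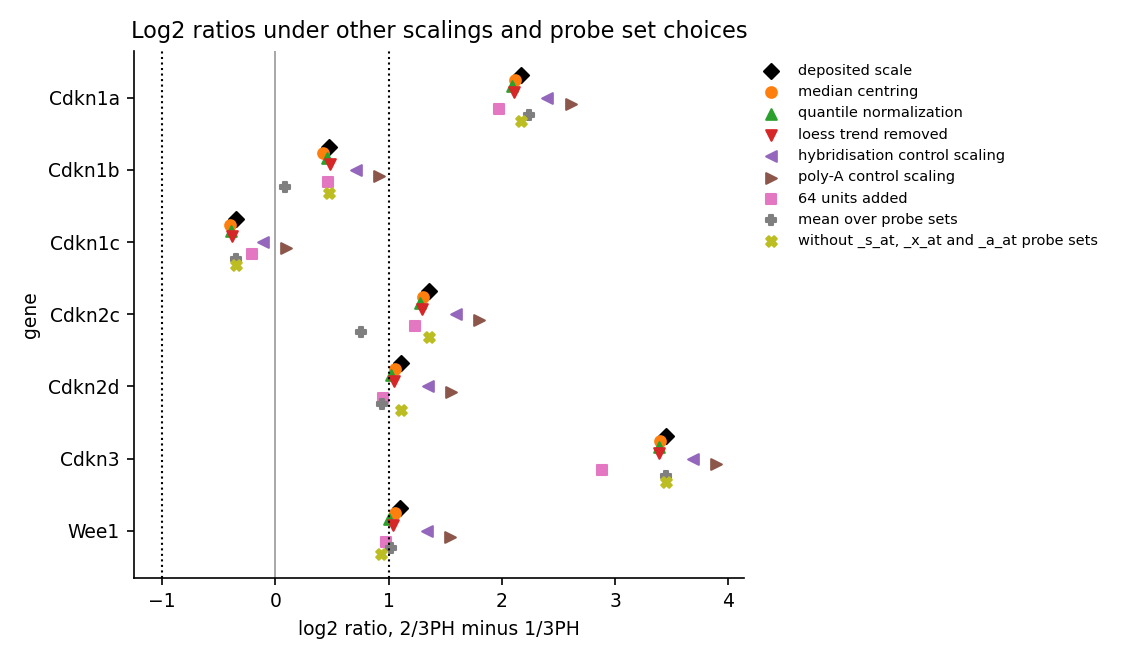
Log2 ratio (horizontal axis) of the 7 members above the floor on the deposited scale (black diamonds) and under 8 other settings, with dotted lines at 2-fold. Cdkn3 and Cdkn1a lie beyond 2-fold under every setting drawn, whereas Cdkn2c, Cdkn2d and Wee1 each fall inside it under at least 1.

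The scaling of the arrays bears on all ratios. MAS 5.0 set both arrays to the same trimmed mean, and the spiked-in controls read lower on the 2/3PH array, with a median log2 ratio of -0.24 for the hybridisation controls and -0.44 for the poly-A controls. Scaling to the poly-A controls raised every ratio by the size of that median and put 16.8% of genes 2-fold higher and 1.29% lower. Relative to the median of all genes, which such a shift leaves as it is, the log2 ratio was 3.41 for Cdkn3, 2.13 for Cdkn1a, 1.32 for Cdkn2c, 1.08 for Cdkn2d, 1.07 for Wee1 and 0.44 for Cdkn1b.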

How the data were processed

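Per the labels' protocols, biotin-labelled cRNA was made with a 3' IVT Express kit, hybridised to Affymetrix arrays, read on a Scanner 3000 with Command Console 3.1 and summarised with MAS 5.0 in Gene Spring 11.0. The deposited values are log2 signals of 31099 probe sets; taken out of log2, the trimmed mean (2% off each end) was 500.0 on both arrays. No source used here gives the scaling target or detection calls. Median log2 signals were 6.48 (1/3PH) and 6.53 (2/3PH).

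Gene names came from the platform annotation, and its Entrez identifiers were matched to RefSeq (GRCr8) for current symbols. Leaving out the 57 controls, 20826 probe sets had 1 symbol, 436 several and 9780 none here. The members, lists, limits and alternatives were chosen with earlier results of these data known. Named genes were all members, the cyclins and kinases they act on, up to 4 genes per list with the largest ratio, and the 3 genes nearest in ratio to each called member; counts cover whole lists. The p53 half-site search was added after the other motifs, when the members' values were already known. The calculation was tested on simulated data. Python 3.11.15, pandas 2.3.3, numpy 2.4.6 and statsmodels 0.14.6 were used. The number of arrays limits the precision.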

Additional observations from a re-analysis of the deposited data

How the results depend on the processing

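Of 105 values recomputed under 12 alternatives, 85 moved by less than the spread between probe sets of a gene (SD 0.33) or, for counts, by at most 1.5 times; 20 moved more and 0 of the called ratios changed sign. Scaling to the poly-A controls gave 2.61 for Cdkn1a, 0.92 for Cdkn1b, 0.10 for Cdkn1c, -2.53 for Cdkn2a, 1.30 for Cdkn2b, 1.80 for Cdkn2c, 1.55 for Cdkn2d, 3.89 for Cdkn3, 1.55 for Wee1 and 1.55 for the members' median, each moved by the one shift of that scaling. The values for Cdkn2a and Cdkn2b compare signals under the floor and stand for no fold. With 64 units added before the log, Cdkn2a stood at -0.40, Cdkn2b at 0.35 and Cdkn3 at 2.89, and the count of members 2-fold higher was 3, without Cdkn2d (0.95) and Wee1 (0.97). The mean over probe sets gave 0.081 for Cdkn1b and 0.76 for Cdkn2c and a count of 3, without Cdkn2c and Cdkn2d (0.95). Without probe sets of shared suffixes the count was 4, since Wee1 stood at 0.93, and 6.11% of all genes were higher. The count was 3 with the floor at the 75th percentile, which left 4 members and where 4.97% of all genes were higher. At a 3-fold limit it was 2, where 2.24% of all genes were higher. Without a floor, 1 member, Cdkn2a, was 2-fold lower, at signals where 18.3% of genes were. The count stayed at 5 under median centring, quantile normalization and loess, where 5.52%, 5.56% and 5.74% of all genes were 2-fold higher, and under hybridisation and poly-A control scaling, where 10.2% and 16.8% were. No paired analysis was possible because each group had 1 array. With 1 array per group, no replicate could be left out. Signals under the floor limit Cdkn2a and Cdkn2b on both arrays, and Cdkn1c on the 2/3PH array.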
